A study of Homo sapiens with 6 samples.

Results

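MHC class II molecules were studied here through 8 genes: CIITA, HLA-DRA, HLA-DPA1, HLA-DPB1, HLA-DMA, HLA-DMB, CD74 and RFX5. Every probe set that named only 1 of these genes was taken, which gave 17 of the 54613 probe sets tested and 8 of 19775 genes. The cells were OCI-AML3, an established human line from an acute myeloid leukaemia with mutated NPM1. They were cultured for 24 h with 1 μM Vorinostat (SAHA), an inhibitor of histone deacetylases, in 3 samples, or with DMSO, its solvent, in 3 samples. Total RNA was hybridised to Affymetrix HG-U133 Plus 2.0 arrays, and replicates are numbered 1 to 3 in both groups. Separate cultures are not named in the sources, so the p-values describe the spread of these arrays only, which may be technical. All samples came from 1 cell line, with no other cell type and no stimulus such as interferon gamma in the labels.

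MHC class II molecules are pairs of an alpha and a beta chain that show peptides from endosomes to helper T cells, and they are typical of B cells, dendritic cells and macrophages. CD74, the invariant chain, fills the groove of new class II molecules, and HLA-DM later exchanges its remnant for peptide. The genes of this system are switched together by CIITA, a coactivator that does not bind DNA itself but sits on the RFX complex (RFX5, RFXAP and RFXANK), CREB and NF-Y at the X and Y boxes of their promoters.

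Promoter sequence is shown because CIITA acts on class II genes through their X and Y boxes. RefSeq promoter windows (GRCh38.p14) were held for 6 of the 8 genes, in 9 windows that run from 250 bases before a transcription start to 50 bases after it. None was held for CIITA or HLA-DRA. Capitals mark 2 motifs searched on both strands, which did not overlap. The NF-Y motif of the Y box is CCAAT, or its reverse complement. It was marked at any distance from the X box letters, so a mark need not be a Y box. In HLA-DMB the only one lies at bases -22 to -18, with the X box letters at -91 to -77. For the X box the letters CCNAGTNANNNATGA were used, which are those shared by the most alike stretch of 15 bases upstream of HLA-DPB1, HLA-DMA and HLA-DMB (10 of 15 the same in all 3, and 9 in the next best stretch). They were read from these windows and not from binding data, so the matches in these 3 genes are given by construction. The stretches below run from base -135 to base -16 before the start, 5′ to 3′ in the sense of the gene. They lie at chr6:33075855-33075974 (plus strand) for HLA-DPB1, chr6:32953113-32953232 (minus strand) for HLA-DMA, chr6:32941044-32941163 (minus strand) for HLA-DMB and chr5:150412926-150413045 (minus strand) for CD74.
HLA-DPB1: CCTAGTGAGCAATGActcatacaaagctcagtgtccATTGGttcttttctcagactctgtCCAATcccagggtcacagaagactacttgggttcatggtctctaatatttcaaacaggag
HLA-DMA: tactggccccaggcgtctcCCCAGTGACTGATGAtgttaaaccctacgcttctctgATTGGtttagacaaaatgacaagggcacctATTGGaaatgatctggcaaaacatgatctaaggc
HLA-DMB: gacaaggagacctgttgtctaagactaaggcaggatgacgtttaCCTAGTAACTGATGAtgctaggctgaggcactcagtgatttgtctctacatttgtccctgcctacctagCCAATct
CD74: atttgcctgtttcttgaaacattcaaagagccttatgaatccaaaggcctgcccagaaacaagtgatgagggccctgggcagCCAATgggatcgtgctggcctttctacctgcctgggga
The X box letters stood in 0.0456% of all 35116 windows (16 windows), the 3 that gave them included. The NF-Y motif was found in 34.6% of all windows and in those of these 3 genes, of CD74 and, in 1 of 3 windows, of RFX5. Both motifs together stood in 0.0199% of the windows. The CD74 and RFX5 windows and the 2 windows of HLA-DPA1 held no match to these X box letters. An X box with other letters would not have been found, so these windows may still hold one.

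Signal differed between the arrays. The number 1 arrays held 8158 (Vorinostat) and 8645 (DMSO) probe sets above a log2 value of 3, a level chosen after the data had been seen, and the other 4 held between 2761 and 3731. Array medians lay between 1.55 and 1.66. Of the 10 myeloid markers measured, LYZ and CEBPA lay above 3 on all 6 arrays and 8, among them MPO and SPI1, on none, so a value at the bottom of this scale was also read for genes that define the lineage. Of 7 B cell markers, CD79A alone passed 3, on 1 Vorinostat array. Of 7 T and NK cell markers NCAM1 alone passed it, and of 7 dendritic cell markers CD1C and BATF3 did.

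In OCI-AML3 cells CIITA and the 5 HLA-D genes gave values at the bottom of the scale with Vorinostat and with DMSO alike, and only CD74 and RFX5 gave values above a log2 value of 3. None of the 17 probe sets was higher with Vorinostat at an unadjusted p under 0.05 from limma, and 1, for HLA-DPA1, was lower. Over all probe sets tested 0.498% were higher and 0.5% lower at that level. At an adjusted p under 0.05 limma called 0 of the 17 and 0 of all probe sets. At over 2-fold with an unadjusted p under 0.05 from limma, 0 of the 17 passed, against 0.0439% of all probe sets (0.0165% higher and 0.0275% lower). The 12 probe sets of CIITA and the HLA-D genes had values between 1.20 and 2.18 on the Vorinostat arrays and between 1.15 and 2.37 on the DMSO arrays, and none of their values passed 3 on any array. In all, 14 of the 17 member probe sets stayed under 3 on every array, as did 80.3% of all probe sets tested. The median difference, Vorinostat minus DMSO, was 0.08 on the log2 scale over the 17 probe sets and -0.02 over all probe sets. In these bulk samples, fewer cells with a transcript and less transcript per cell cannot be told apart.

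**Figure D1:**
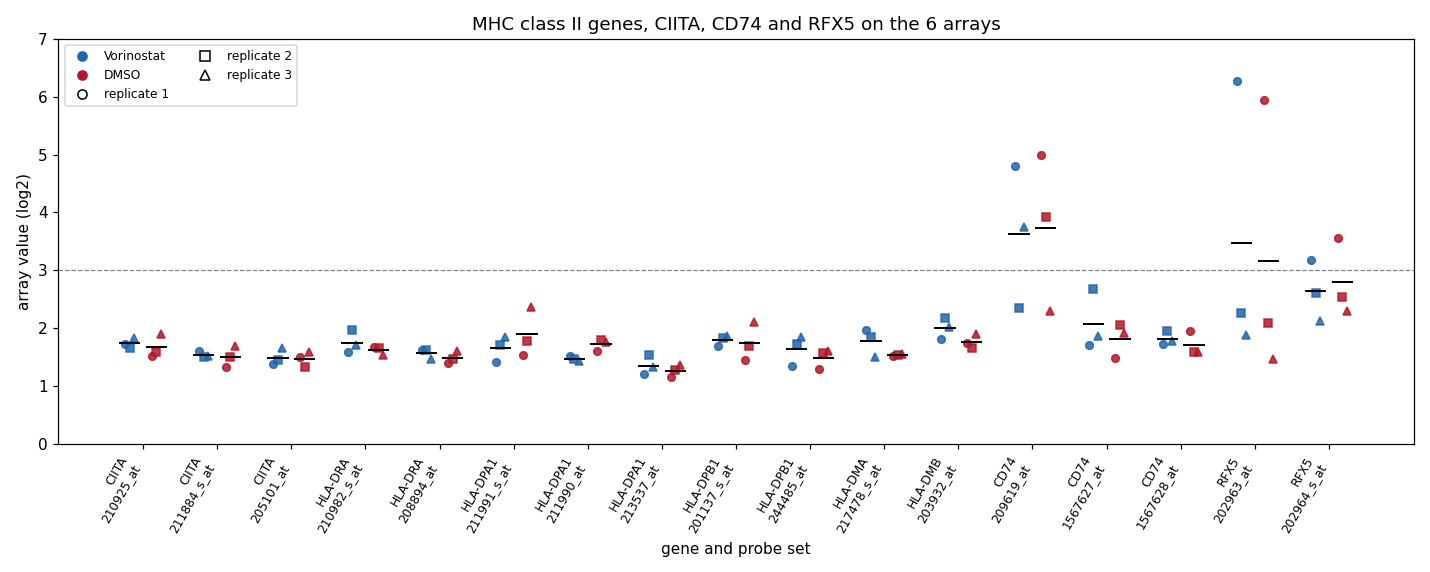
Log2 array value (y axis) of each of the 17 probe sets (x axis, gene and probe set) on the 6 arrays, with Vorinostat in blue left of DMSO in red, the marker giving the replicate number and black bars the group means of 3 arrays. The 12 probe sets of CIITA and the HLA-D genes all lie under 2.4, and only CD74 and RFX5 have points above the dashed line at 3.

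CIITA, the master coactivator of the class II genes, was read by 3 probe sets, and none of them differed between the groups by more than the spread between arrays. Probe set 210925_at had values of 1.73, 1.66 and 1.83 with Vorinostat in replicates 1, 2 and 3, against 1.51, 1.59 and 1.89 with DMSO. The groups overlapped, with the highest and the lowest value both on DMSO arrays. The log2 change was 0.08 (limma standard error 0.13, 95% interval -0.26 to 0.41, adjusted p = 1). The differences within replicate numbers 1, 2 and 3 were 0.22, 0.07 and -0.06. Probe set 211884_s_at averaged 1.54 ± 0.06 with Vorinostat and 1.50 ± 0.18 with DMSO (SD, n = 3 each), and 205101_at averaged 1.49 ± 0.15 and 1.47 ± 0.13. Their log2 fold changes were 0.04 and 0.02, so the largest upper bound over the 3 CIITA probe sets was 0.41. These bounds hold for the array value, and near the array median the value need not follow the transcript in proportion.

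HLA-DRA encodes the nearly invariant alpha chain of HLA-DR, and its 2 probe sets showed no difference beyond the spread between arrays. For 210982_s_at the values were 1.58, 1.96 and 1.70 with Vorinostat and 1.67, 1.66 and 1.54 with DMSO. The second Vorinostat array stood highest and the third DMSO array lowest, and the groups overlapped. The difference was 0.12 on the log2 scale (limma standard error 0.13, 95% interval -0.20 to 0.45, adjusted p = 1). For 208894_at, values of 1.62, 1.62 and 1.47 with Vorinostat stood against 1.39, 1.47 and 1.60 with DMSO, a log2 fold change of 0.08 (95% interval -0.18 to 0.34). The sign was mixed across the replicate numbers in both probe sets.

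HLA-DPA1 and HLA-DPB1 encode the alpha and beta chains of HLA-DP. The HLA-DPA1 probe set 211990_at was the only member whose groups did not overlap, with values of 1.51, 1.47 and 1.43 with Vorinostat, against 1.61, 1.80 and 1.75 with DMSO. Of all probe sets tested, 2.87% lay lower with Vorinostat without overlap and 2.39% higher. For 211990_at the log2 change was -0.25 (limma standard error 0.09, 95% interval -0.49 to -0.02), with an unadjusted p = 0.0401 and an adjusted p = 1 from limma. With the replicate number as a block the unadjusted p was 0.0734, with an adjusted p = 0.887 from limma. Without DMSO replicate 1 the log2 change was -0.30 and the unadjusted p from limma 0.0295. Leaving out any of the other 5 arrays ended the call, with p between 0.0717 and 0.115, while the value stayed between -0.27 and -0.21. The call was kept after quantile normalisation (unadjusted p = 0.0411 from limma), without both number 1 arrays (-0.32, unadjusted p = 0.049) and in the methods' t-test. The other probe sets of the gene did not pass the test, and their differences had opposite signs. Probe set 211991_s_at had values of 1.41, 1.70 and 1.84 with Vorinostat and 1.53, 1.77 and 2.37 with DMSO, where the third DMSO array was the highest value of all the HLA-D probe sets. The difference was -0.24 on the log2 scale (limma standard error 0.25, adjusted p = 1), and that of 213537_at was 0.09 (standard error 0.13 from limma, adjusted p = 1). Both 211990_at and 211991_s_at were lower with Vorinostat in each replicate number, as were 14.7% of all probe sets.
For HLA-DPB1 the probe set 201137_s_at had values of 1.68, 1.83 and 1.86 with Vorinostat and 1.45, 1.68 and 2.11 with DMSO. The third DMSO array stood highest here too, and the log2 change was 0.04 (limma standard error 0.19, 95% interval -0.44 to 0.53). Probe set 244485_at had 1.35, 1.72 and 1.85 with Vorinostat and 1.29, 1.56 and 1.61 with DMSO. It was higher in each replicate number, by 0.06, 0.15 and 0.24, but the groups overlapped and its log2 change was 0.15 (limma standard error 0.17, adjusted p = 1).

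HLA-DMA and HLA-DMB encode the heterodimer that loads peptide on class II molecules, and each was read by 1 probe set with a log2 fold change of 0.24. HLA-DMA had values of 1.97, 1.85 and 1.50 with Vorinostat and 1.52, 1.54 and 1.55 with DMSO. The DMSO arrays lay close together, while the third Vorinostat array fell below all of them. The standard error was 0.14 and the 95% interval -0.13 to 0.60 (adjusted p = 1 from limma). Leaving out 1 array at a time gave 0.38 (unadjusted p = 0.0218 and no adjusted p under 0.05 from limma) without Vorinostat replicate 3 and 0.14 (unadjusted p = 0.385) without Vorinostat replicate 1, the ends of the range, and without both number 1 arrays it was 0.13 (unadjusted p = 0.473). HLA-DMB had 1.81, 2.18 and 2.01 with Vorinostat and 1.74, 1.65 and 1.89 with DMSO. It was higher in each replicate number, by 0.06, 0.53 and 0.13, and the groups overlapped only through the first Vorinostat and the third DMSO array. Its standard error was 0.13 and its 95% interval -0.10 to 0.58 (adjusted p = 1 from limma). Values of 0.15 without Vorinostat replicate 2 and 0.34 without Vorinostat replicate 1 were the ends of the range on leaving out 1 array. Higher values in each number were found for 3 of the 17 member probe sets, those of HLA-DMB, HLA-DPB1 and RFX5, against 12.4% of all probe sets.

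**Figure D2:**
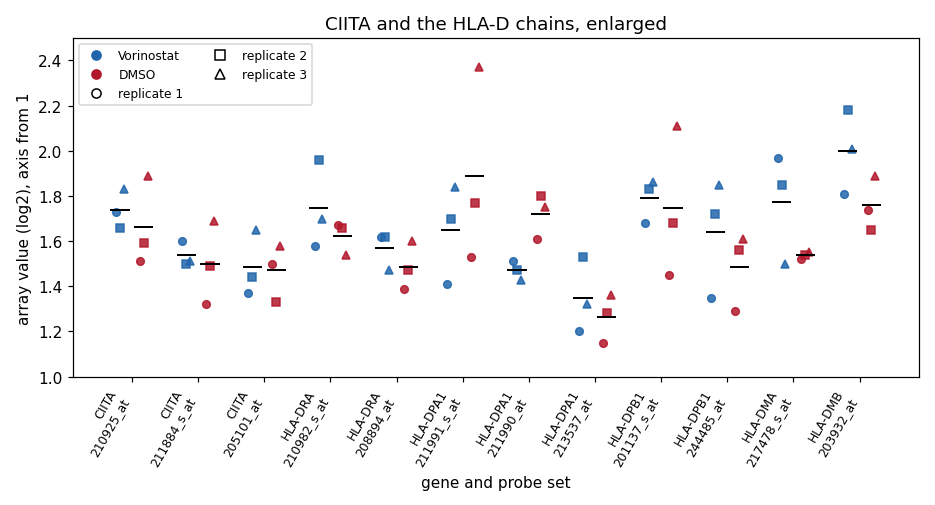
Log2 array values (y axis, which starts at 1) of the 12 probe sets of CIITA and the HLA-D genes (x axis), with Vorinostat in blue left of DMSO in red, the marker giving the replicate number and black bars the means of 3 arrays. The groups overlap in 11 of them and are apart for HLA-DPA1 211990_at, at 1.43 to 1.51 with Vorinostat and 1.61 to 1.80 with DMSO.

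As a group, the 12 probe sets of CIITA and the HLA-D genes had an array mean of 1.57, 1.71 and 1.66 on the Vorinostat arrays and 1.47, 1.57 and 1.74 on the DMSO arrays. The groups overlapped, and the lowest mean and the highest both came from DMSO arrays. The whole-array median moved with them in part, at 1.55 on both number 1 arrays and between 1.64 and 1.66 on the others. Of the 12 probe sets 10 had a positive log2 fold change and 2 a negative one, while 46% of all probe sets were positive. In replicate number 1, 8 of the 12 were higher with Vorinostat (49.4% of all probe sets were), in number 2 there were 10 (45% of all) and in number 3 there were 4 (49.9% of all), so the direction was not shared by the third number.

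CD74, the invariant chain that chaperones class II molecules, did not differ between the groups by more than the spread between arrays. Probe set 209619_at had values of 4.81, 2.35 and 3.74 with Vorinostat, against 4.99, 3.92 and 2.29 with DMSO. Values spread over more than 2 log2 units within each group, and the groups overlapped fully. The means were 3.63 ± 1.24 with Vorinostat and 3.74 ± 1.36 with DMSO (SD, n = 3 each). The log2 change was -0.10 (limma standard error 0.92, 95% interval -2.40 to 2.20, adjusted p = 1), an interval wide enough to hold a 2-fold change either way. Within replicate numbers 1, 2 and 3 the differences were -0.18, -1.58 and 1.45, so numbers 2 and 3 went opposite ways. The 6 arrays stood in the same order for CD74 as for the number of probe sets above 3, which was 8645, 8158, 3731, 3274, 2769 and 2761 for DMSO 1, Vorinostat 1, DMSO 2, Vorinostat 3, Vorinostat 2 and DMSO 3. Among the 3379 genes with a mean above 3, 7.04% had that exact order, and 31.9% were, like CD74, lower in numbers 1 and 2 and higher in number 3. The part of array signal in the CD74 values was not tested. After quantile normalisation CD74 was 3.49, 2.83 and 4.54 with Vorinostat and 3.48, 4.42 and 2.80 with DMSO, a log2 fold change of 0.05 (limma standard error 0.58).
The other CD74 probe sets stayed under 3 on every array. Probe set 1567627_at had 1.70, 2.67 and 1.86 with Vorinostat and 1.48, 2.06 and 1.91 with DMSO, a log2 fold change of 0.26 (limma standard error 0.31). The second Vorinostat array was the highest of its group here and the lowest of its group for 209619_at. Probe set 1567628_at averaged 1.81 ± 0.12 with Vorinostat and 1.71 ± 0.21 with DMSO (SD, n = 3 each). No order over the arrays was shared by the 3 probe sets of CD74.

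**Figure D3:**
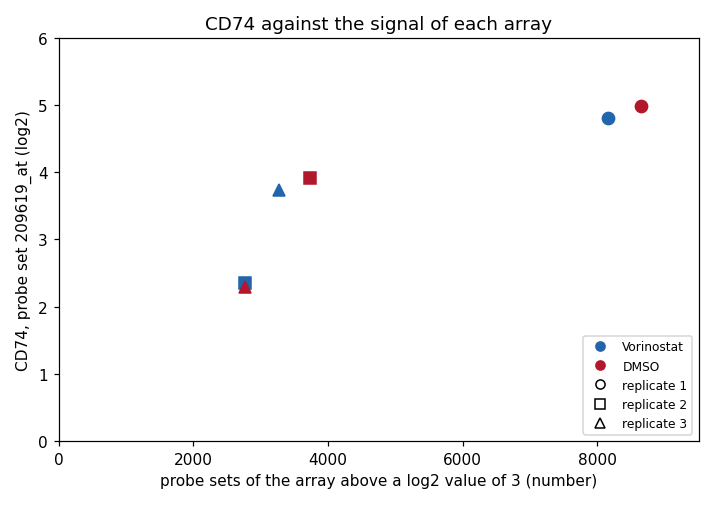
CD74 (probe set 209619_at, log2, y axis) against the number of probe sets above a log2 value of 3 on the same array (x axis), with 1 point per array, Vorinostat in blue, DMSO in red and the marker giving the replicate number. Both rise together, from DMSO 3 at 2761 probe sets and 2.29 to DMSO 1 at 8645 probe sets and 4.99.

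CD74 was the member with the highest mean array value with DMSO. The other genes most like it over the 6 arrays were found by Pearson correlation among 3377 genes with a mean above 3. They were CFD (complement factor D, r = 0.999), RPL8 (a ribosomal protein, r = 0.998), ESYT2 (a membrane tether, r = 0.996), ATP6V0C (a subunit of the vacuolar proton pump, r = 0.994) and SCAMP3 (a secretory carrier protein, r = 0.994). All 6 points share the differences in array signal given above, so these values are a description of 6 arrays. CFD had 8.87, 4.81 and 7.05 with Vorinostat and 9.00, 7.15 and 4.74 with DMSO, the same order as CD74.

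RFX5, the DNA-binding subunit that tethers CIITA to the X box, was read well on the number 1 arrays alone. Probe set 202963_at had values of 6.28, 2.26 and 1.88 with Vorinostat, against 5.95, 2.08 and 1.46 with DMSO. It stood above 3 on the first array of each group and below it on the other 4, so its level differed far more between replicate numbers than between treatments. The difference was 0.31 on the log2 scale (limma standard error 1.71, 95% interval -3.99 to 4.61, adjusted p = 1). With the replicate number as a block the same value had a standard error of 0.10 and a 95% interval of 0.03 to 0.60, with an unadjusted p = 0.0383 and an adjusted p = 0.887 from limma. With that block 1.59% of all probe sets were called higher and 2.09% lower at the same unadjusted level, and of the 17 members this RFX5 probe set was the only one called. The differences in numbers 1, 2 and 3 were 0.33, 0.18 and 0.42. The second probe set, 202964_s_at, did not share that direction. It had 3.18, 2.60 and 2.12 with Vorinostat and 3.55, 2.54 and 2.29 with DMSO, with differences of -0.37, 0.06 and -0.18 and a log2 fold change of -0.16 (limma standard error 0.43, 95% interval -1.24 to 0.92).

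**Figure D4:**
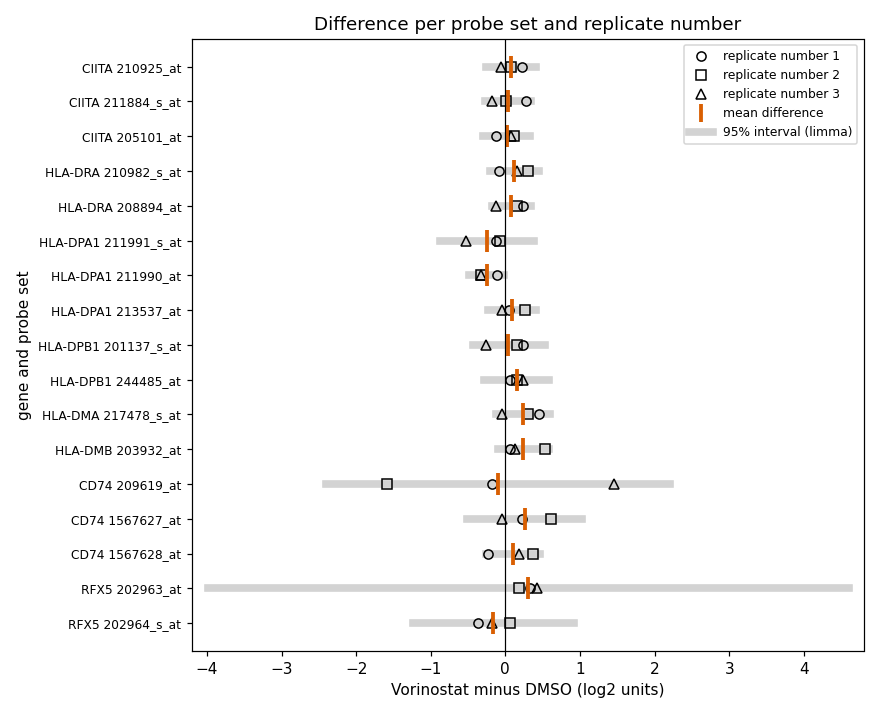
Vorinostat minus DMSO in log2 units (x axis) for each of the 17 probe sets (rows), with open markers for replicate numbers 1, 2 and 3, an orange bar for the mean difference and a grey band for its 95% interval from limma without a block. Bands cover 0 for 11 of the 12 probe sets of CIITA and the HLA-D genes, all but HLA-DPA1 211990_at, and run from -3.99 to 4.61 for RFX5 202963_at.

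No order of transcript level among the 8 genes was drawn, since different probe sets do not share a scale. What the probe sets do show is that CD74 and RFX5 were read above 3 on some arrays (4 of 6 for CD74, 2 of 6 for each RFX5 probe set), and the 12 others on none. Another 6 probe sets that name several class II genes at once were not used. Their values lay between 1.09 and 2.47 with none above 3.

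The rest of the class II pathway was followed through 39 genes in 6 lists, each gene by its brightest probe set. Of these, 0 were higher and 0 were lower at an unadjusted p under 0.05 from limma, against 0.602% and 0.389% of all genes. With the replicate number as a block, HLA-DOB was higher and SMARCA4 lower at that level, against 2.25% and 3.12% of all genes. The median log2 fold change over the 39 genes was 0.01, and -0.02 over all genes.
The other class II chains were low as well, with all 8 measured genes under 3 on every array, as were 66.3% of all genes. HLA-DOB, the beta chain of the HLA-DM inhibitor HLA-DO, had 1.48, 2.38 and 2.29 with Vorinostat and 1.32, 1.77 and 1.80 with DMSO. It was higher in each replicate number, by 0.16, 0.61 and 0.49, while the groups overlapped through the first Vorinostat array. The log2 change was 0.42 (limma standard error 0.29, adjusted p = 1 from limma), and the block gave an unadjusted p = 0.0308 with an adjusted p = 0.887. Leaving out 1 array at a time gave HLA-DOB 0.70 (unadjusted p = 0.018 from limma) without Vorinostat replicate 1, and 0.26 without Vorinostat replicate 2 (unadjusted p = 0.461) or DMSO replicate 1 (unadjusted p = 0.447), the ends of its range. Without both number 1 arrays it was 0.55 (unadjusted p = 0.00913), and after quantile normalisation 0.73 (unadjusted p = 0.104). In each of these settings 0 of the 54613 probe sets passed an adjusted p under 0.05 from limma. At the unadjusted level 999 were higher without Vorinostat replicate 1 and 841 without both number 1 arrays, against 272 in the fit on all arrays. The HLA-DR beta chain genes HLA-DRB4 and HLA-DRB1 had 0.31 and -0.03, and HLA-DRB6, a pseudogene, had -0.03.
Of the promoter complex 6 genes were measured, 3 with a positive and 3 with a negative log2 fold change. NFYA, a subunit of the factor that binds the Y box, averaged 2.99 ± 0.19 with Vorinostat and 2.73 ± 0.11 with DMSO (SD, n = 3 each). The difference was 0.25 on the log2 scale (limma standard error 0.13, adjusted p = 1), and leaving out 1 array at a time gave 0.36 (unadjusted p = 0.039) without Vorinostat replicate 3 and 0.19 to 0.29 otherwise. NFYC, another subunit of that factor, had -0.33, CREB1, which binds the X2 box, had -0.17 and RFXAP, a partner of RFX5, had 0.06. The paper's supplementary list gives NFYC as decreasing with Vorinostat, at over 2-fold. Only the brightest NFYC probe set was followed here, so that call was not checked on the others.
The genes that induce CIITA include the interferon gamma pathway. IRF8, a transcription factor of myeloid and B cells, was the only gene of the 39 read above 3 on all 6 arrays, at 9.55, 6.08 and 6.86 with Vorinostat and 9.86, 7.65 and 7.04 with DMSO. It was lower in each replicate number, with differences of -0.30, -1.56 and -0.18, and the groups overlapped. The log2 change was -0.68 (limma standard error 1.17, adjusted p = 1), and with the replicate number as a block the unadjusted p was 0.0969. After quantile normalisation it was -0.05 (limma standard error 0.19), and leaving out 1 array at a time gave -1.71 to 0.15, with a positive value without Vorinostat replicate 2 (0.02) or DMSO replicate 1 (0.15). JAK1, a kinase at the interferon receptor, had -0.71 (standard error 1.64), IRF1, a factor of the inducible CIITA promoter, had 0.42 (standard error 0.52) and JAK2, the other receptor kinase, had 0.08.
Among the partners that CIITA recruits, SMARCA4, the motor of a chromatin remodelling complex, had the most negative value. It had 5.03, 2.75 and 3.86 with Vorinostat and 7.57, 3.02 and 5.00 with DMSO. It was lower in each replicate number, with differences of -2.54, -0.27 and -1.14, but the groups overlapped. The difference was -1.32 on the log2 scale (limma standard error 1.27, adjusted p = 1 from limma), and the block gave an unadjusted p = 0.0463 with an adjusted p = 0.887. Without DMSO replicate 1 it was -0.13 and without DMSO replicate 2 it was -2.40, the ends of the range on leaving out 1 array, and without both number 1 arrays it was -0.70. The acetyltransferase EP300 had -0.68, its difference lying mostly in number 1 (-1.78), and -0.10 without DMSO replicate 1. KAT2B, an acetyltransferase, had 0.17 and CDK9, a kinase of transcription elongation, had 0.16.
Of 6 endosomal processing genes measured, 3 stayed under 3 on every array, against 66.3% of all genes. IFI30, also on that list, was left out because no single-gene probe set names it. The paper's supplementary list gives IFI30 as increasing with Vorinostat. The proteases CTSL and CTSD had log2 fold changes of -0.26 and -0.31, LGMN, the asparaginyl endopeptidase, had 0.17 and CTSB had 0.22. Leaving out 1 array at a time gave CTSD -0.58 (unadjusted p = 0.0354 from limma) without DMSO replicate 3 and -0.07 (unadjusted p = 0.76) without DMSO replicate 2, the ends of its range.
Of the 6 surface genes 0 passed limma's test at an unadjusted p under 0.05, and 5 had a positive value, while 53.1% of all genes had a negative one. MARCHF1, the ubiquitin ligase that removes class II molecules from the surface, had 1.68, 1.78 and 1.88 with Vorinostat and 1.49, 1.64 and 1.55 with DMSO. It was the only gene of the 39 whose groups did not overlap, against 2.3% of all genes higher and 1.95% lower. For MARCHF1 the log2 change was 0.22 (limma standard error 0.10, 95% interval -0.03 to 0.47, unadjusted p = 0.0724 and adjusted p = 1 from limma). Of the 39 genes it was the only 1 to pass the methods' t-test at an unadjusted level of 0.05. Of all probe sets, 2.04% passed that test at the same level. CD40, a costimulatory receptor, had 0.26 (standard error 0.12 from limma), and leaving out 1 array at a time gave 0.36 (unadjusted p = 0.0314) without DMSO replicate 2 and 0.20 to 0.32 otherwise. MARCHF8, a related ligase, had -0.50 (standard error 0.35 from limma).

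**Figure D5:**
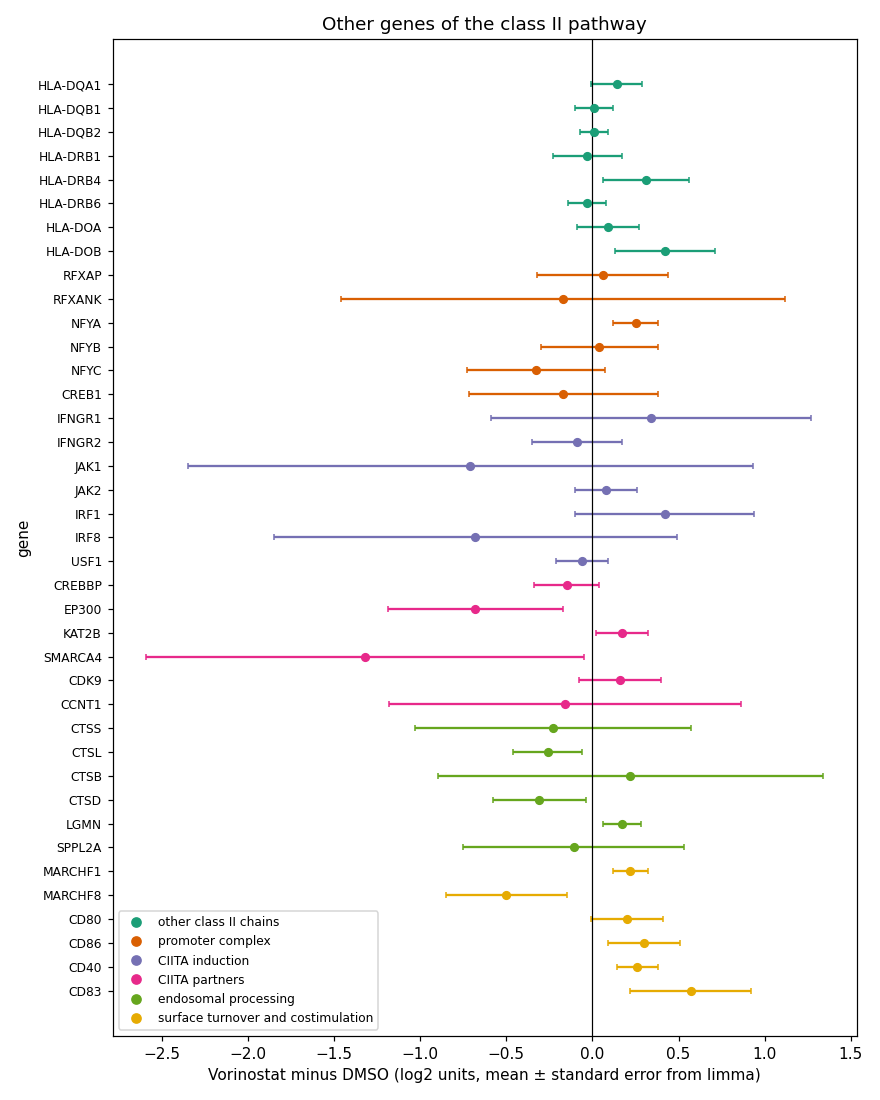
Vorinostat minus DMSO in log2 units (x axis, mean difference with its standard error from limma) for the 39 other pathway genes (rows), coloured by list. Values run from -1.32 for SMARCA4 to 0.57 for CD83, and 0 of the 39 passed an unadjusted p under 0.05.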

How the data were processed

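The authors deposited 1 table of log2 values, 1 per probe set and array, for 6 arrays (3 per group, not pooled). Partek Genomics Suite is the software given in the paper's methods. MAS5 and RMA stand in the submitters' processing notes, whose versions and roles are not given in the sources used here. The study's array threshold, over 2-fold with an unadjusted p under 0.05, was applied to limma's p. A two-tailed Student's t-test, which the paper names for its data in general and not for the arrays, was run as an alternative and is called the methods' t-test. That the scale is log2 was read from the values, which ran from 0.87 to 13.76. The arrays' upper percentiles differed, so the values are not quantile normalised. No detection calls were used here, and the number of arrays limits the precision.

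Of 54675 probe sets, 62 controls were left out. Of the 54613 tested, 41091 name 1 gene, 1801 several and 11721 none here, by the platform annotation. For a gene with several probe sets the one with the highest mean over the 6 arrays stood for the pathway lists. Vorinostat minus DMSO was fitted with limma 3.58.1 under R 4.3.3 without a block (lmFit, then eBayes), adjusted by Benjamini-Hochberg over every tested probe set, with an unadjusted p under 0.05 as the lower level. X box letters were taken as the most alike 15 bases of 3 promoter windows. The script was tested on simulated data. An exact permutation of 3 arrays against 3 cannot go below p = 0.1 and was not used.

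The members and lists were chosen with earlier results of these data known. Named were all members, up to 2 genes per list and direction with the smallest unadjusted p, and the 5 genes most correlated with the member of highest DMSO mean. Genes of a list that no single-gene probe set names were left out. The replicate number was tried as a block. Deviations from group means correlated at 0.874, 0.599 and 0.672 for numbers 1, 2 and 3. Each lay above the level of 0.1 at which numbers were taken as pairs, although no source states a pairing. Numbers 2 and 3 also correlated across (0.695 and 0.594). Deviations from a mean cancel out within a group, and the number 1 arrays stood apart. Numbers 2 and 3 therefore passed that level in either matching, so it could not show which of them are pairs.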

Additional observations from a re-analysis of the deposited data

How the results depend on the processing

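No member passed an adjusted p under 0.05 from limma in any alternative tried, nor in the methods' t-test. The median difference of the 17 member probe sets stayed between 0.04 and 0.13. The replicate number as a block gave 1 member higher (RFX5) and 0 lower at an unadjusted p under 0.05, 867 probe sets higher and 1140 lower in all, and 52 and 175 at over 2-fold, and it changed no other member's call than those of RFX5 202963_at and HLA-DPA1 211990_at. Without the block limma gave 272 higher and 273 lower, and 9 and 15 at over 2-fold. The methods' t-test gave 470 and 645, and 3 and 2. Quantile normalisation gave 476 lower, and 46 and 71 at over 2-fold. With only probe sets of a mean above 3, 0 members were lower, 0 probe sets were higher and 1 lower at either level, and the pathway median was -0.68, over fewer genes. Without both number 1 arrays there were 841 higher and 997 lower, and 83 and 205 at over 2-fold. Leaving out 1 array at a time gave 0 to 1 member higher, 0 to 1 lower, 218 to 999 probe sets higher, 86 to 853 lower, and 5 to 99 and 0 to 141 at over 2-fold.

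Signs turned in results that did not pass the unadjusted level in limma without a block. Without both number 1 arrays these were CIITA 211884_s_at (-0.08), HLA-DPB1 201137_s_at (-0.05), HLA-DRB6 (0.02) and CTSB (-0.17). After quantile normalisation they were HLA-DPB1 201137_s_at (-0.06) and CD74 209619_at (0.05), and CD74 averaged over its probe sets gave 0.09. Leaving out 1 array at a time gave -0.05 to 0.13 for CIITA 211884_s_at, -0.06 to 0.08 for CIITA 205101_at, -0.11 to 0.23 for HLA-DPB1 201137_s_at, -0.82 to 0.54 for CD74 209619_at, -0.04 to 0.45 for CD74 1567627_at, -1.09 to 1.70 for RFX5 202963_at and -0.43 to 0.22 for RFX5 202964_s_at. For pathway genes it gave -0.12 to 0.01 for HLA-DRB6, -0.20 to 0.14 for HLA-DRB1, -0.27 to 0.34 for RFXAP, -0.58 to 0.10 for NFYC, -0.55 to 0.33 for CREB1, -0.10 to 0.73 for IRF1, -0.06 to 0.23 for JAK2, -1.71 to 0.15 for IRF8, -1.76 to 0.87 for JAK1, -0.04 to 0.32 for CDK9 and -0.87 to 0.92 for CTSB. The cause of these turns was not tested.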
